A study of Mus musculus with 2 samples.

Results

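The lysosome and cathepsin genes are 36 genes taken from a written list of lysosomal proteases, other lysosomal hydrolases, lysosomal membrane proteins, proton pump subunits and 1 secreted cathepsin inhibitor. All 36 were found among the 22337 gene symbols of the deposited matrix, and no threshold on expression was used to choose them. They were followed across 14 annotated cell types and between the grafts of 6 mice. The lysosome is an acid compartment in which proteases, lipases and glycosidases break down material that a cell has taken up or no longer needs. A vacuolar proton pump keeps it acid, and heavily glycosylated membrane proteins line it. In macrophages and dendritic cells its cathepsins also trim the invariant chain and foreign proteins before peptides are loaded onto MHC class II, the molecule that presents antigen to CD4+ T cells.

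The grafts were hearts of Bm12 mice, which carry an altered I-A class II molecule, placed heterotopically in C57BL/6 (B6) recipients and taken at postoperative day 14. Donors were Il33+/+ (BM12 WT in the labels, called IL-33+ here, hearts 1, 2 and 3) or Il33-/- (BM12 IL33 KO, called IL-33- here, hearts 4, 5 and 6), while all recipients had their own *Il33*. IL-33 is an alarmin, a cytokine that stromal cells hold in the nucleus and release on injury. All donors and recipients were male. Mice were matched for age and sex, and ages were not given in the sources used here. Cells of each heart were isolated by collagenase digestion and a density gradient, tagged with their own hashtag, pooled and read as 1 library of 3' transcript ends, so donor and recipient cells were not told apart.

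The hearts held between 230 and 1666 of the 4441 cells and between 908138 and 7012961 unique molecular identifiers (UMIs, 1 per captured transcript). *Il33* in fibroblasts was 24.3, 0 and 50.7 CPM (UMI counts scaled to each cell's total) in hearts 1 to 3 and 32.6, 73.8 and 16.1 CPM in hearts 4 to 6, from 7, 0, 121, 9, 3 and 5 UMIs. The level of *Il33* therefore did not separate the groups as labelled, and the part of the gene that the knock-out allele lacks was not given in the sources used here. Directions between grafts below are thus directions between labelled groups. Heart 2 was the thinnest, with 10 macrophages, 6 conventional dendritic cells (cDCs), 6 fibroblasts, 5 monocytes and 4 monocyte-derived dendritic cells (Mo-DCs). Of 83 cells annotated as unconventional T cells, 57 held at least 2 T cell and at least 2 macrophage marker genes, against 26 of 429 macrophages. Of 204 Mo-DCs, 35 held at least 4 of 8 neutrophil markers, and of 375 fibroblasts, 83 held at least 2 of 6 endothelial markers. The 9 macrophage markers were all detected in macrophages, with summed levels of 5841 to 10751 CPM over hearts, against 229 to 621 CPM in cDCs, 2153 to 4474 CPM in monocytes and 3495 to 5545 CPM in unconventional T cells. Mo-DCs held 2226 to 11306 CPM of them, so that these markers did not separate Mo-DCs from macrophages.

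The promoters of the members were compared first. RefSeq promoters of GRCm38.p6 were matched by symbol for 29 of the 36 genes, and the 250 bases before each start were searched on both strands. CACGTG is the E-box to which TFEB and related factors bind at lysosomal genes. It was found in 7 of the 29 promoters (24.1%), those of *Ctsa*, *Ctsd*, *Ctsf*, *Ctsl*, *Glb1*, *Lamp1* and *Lgmn*, and in 6.86% of the promoters of 27025 genes. The longer form TCACGTGA, which contains CACGTG, was found for *Ctsa* and *Ctsd* and in 0.907% of all genes. GAGGAA, the core bound by the myeloid factor PU.1 and other ETS factors, was found for 13 of the 29 (44.8%) and in 25.9% of all genes. These shares describe letters in a window and are not binding sites. The promoters of *Lamp1* (chr8:13158911-13159160, plus strand) and *Ctsd* (chr7:142387828-142388077, minus strand) are printed because they held 4 and 2 copies of CACGTG. That of *Ctss* (chr3:95526536-95526785, plus strand) is printed because it held GAGGAA and no CACGTG, and because *Ctss* stood highest in macrophages in each heart. The *Ctsd* window was set by its RefSeq start. In GENCODE release M21 the *Ctsd* gene begins at base 142388038 on the minus strand, so most of that window lies within the gene. Bases run 5′ to 3′ along the gene, and capitals mark CACGTG in the first and second sequences and GAGGAA in the other.
Lamp1: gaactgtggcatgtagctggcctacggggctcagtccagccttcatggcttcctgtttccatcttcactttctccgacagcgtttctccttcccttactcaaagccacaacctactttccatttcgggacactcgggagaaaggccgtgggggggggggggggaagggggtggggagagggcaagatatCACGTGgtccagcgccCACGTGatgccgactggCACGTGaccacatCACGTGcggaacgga
Ctsd: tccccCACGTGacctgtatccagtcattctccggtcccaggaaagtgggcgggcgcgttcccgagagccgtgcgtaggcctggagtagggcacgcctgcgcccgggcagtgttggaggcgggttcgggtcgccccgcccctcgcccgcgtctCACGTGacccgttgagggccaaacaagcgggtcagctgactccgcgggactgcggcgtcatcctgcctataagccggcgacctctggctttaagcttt
Ctss: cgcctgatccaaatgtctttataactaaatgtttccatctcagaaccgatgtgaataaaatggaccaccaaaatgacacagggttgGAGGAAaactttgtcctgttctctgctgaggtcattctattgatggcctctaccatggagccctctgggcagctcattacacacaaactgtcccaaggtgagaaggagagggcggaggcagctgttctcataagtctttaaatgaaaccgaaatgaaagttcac

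Levels across annotated types are given as the CPM averaged across the cells that a heart had of a type. Because the types were drawn from clusters of all genes, these levels are a description, with no test. UMIs are counted at transcript ends, so levels were not divided by gene length. The 36 genes together took 2.45% to 2.98% of the UMIs of macrophages, 1.94% to 2.32% of those of monocytes and 1.37% to 1.55% of those of cDCs. Mo-DCs spread from 1.22% to 3.04%, and the range contained that of macrophages. Fibroblasts were at 0.661% to 0.795%, natural killer (NK) cells at 0.538% to 0.614% and naive T (Tn) cells at 0.323% to 0.372%. Macrophages exceeded monocytes, cDCs, fibroblasts and every lymphocyte type without overlap of hearts, whereas monocytes and Mo-DCs did not differ beyond their spread.

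**Figure D1:**
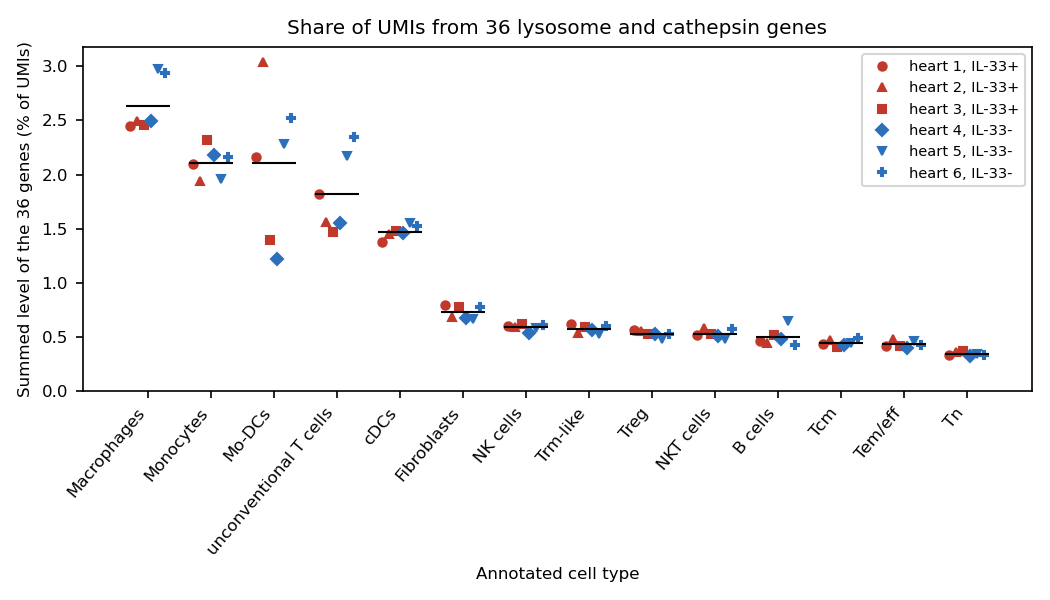
Summed level of the 36 genes as a percent of all UMIs (y axis) in each annotated cell type (x axis), with 1 point per heart, red for hearts labelled IL-33+ and blue for those labelled IL-33-, and a line at the mean of 6 hearts. Myeloid types lie above 1.2%, and fibroblasts, NK, T and B cells lie below 0.8%, while the cells annotated as unconventional T cells, most of which carry macrophage markers, lie with the myeloid types.

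By mean over hearts, 17 members were highest in macrophages, 6 in fibroblasts, 5 in monocytes, 4 in Mo-DCs and 1 each in cDCs, Tn, NKT and resident memory-like T (Trm-like) cells. The first place was firm for few of them. For 2 members, *Ctsk* and *Cst3*, the hearts of the leading type did not overlap those of the next, and for 3, *Ctss*, *Lamp2* and *Cst3*, the same type led in all 6 hearts. Within a heart, 24 of the 36 were higher in macrophages than in NK cells in all 6 hearts, 23 were higher than in fibroblasts, 22 higher than in cDCs and 10 higher than in monocytes. The median log2 difference in favour of macrophages was 2.44 against NK cells, 1.35 against fibroblasts, 0.94 against cDCs and 0.22 against monocytes, on the log2(CPM + 10) scale.

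**Figure D2:**
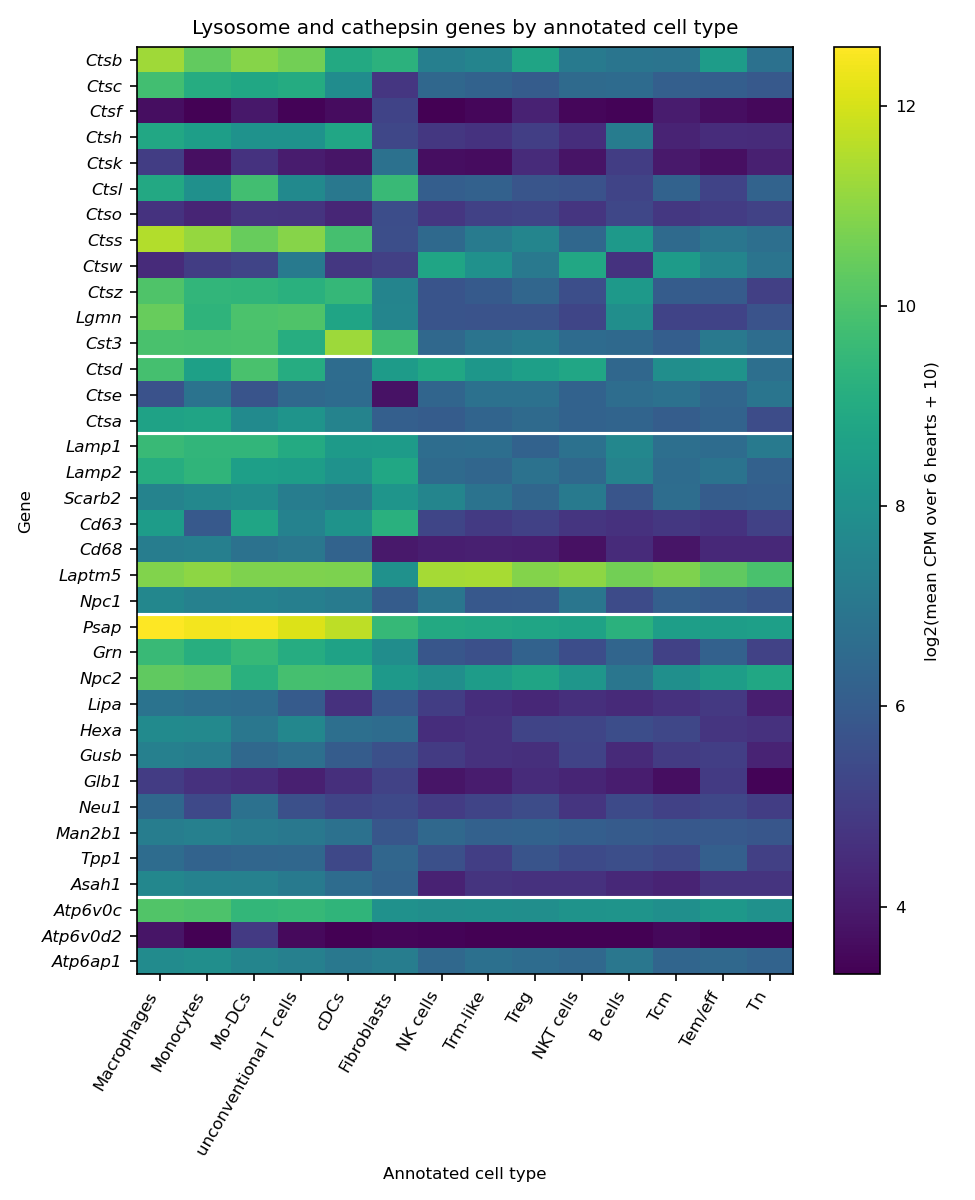
Mean level over 6 hearts as log2(CPM + 10) (colour) of the 36 genes (rows, with white lines between cysteine proteases and *Cst3*, other proteases, membrane proteins, hydrolases and cofactors, and proton pump genes) in 14 annotated types (columns, in order of their summed level). *Psap* is bright in the first 5 columns, *Laptm5* is bright in all but fibroblasts, and *Ctsw*, *Ctsk* and *Cst3* peak outside macrophages.

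Among the cysteine proteases, *Ctss* (chromosome 3, 95526786 to 95556403), the cathepsin that completes removal of the invariant chain in antigen-presenting cells, had the highest level in macrophages, at 2969, 2933, 2503, 2845, 3267 and 2855 CPM in hearts 1 to 6. Monocytes had 2378, 1341, 2222, 2527, 2550 and 2307 CPM, lower in each heart, although the ranges of the 2 types met. In fibroblasts *Ctss* was at 36.6 CPM ± 17.5 (SD, n = 6). *Ctsb*, an endo- and exopeptidase, was at 2459 CPM ± 508 in macrophages, 1926 ± 720 in Mo-DCs and 1297 ± 143 in monocytes (SD, n = 6), and the first pair did not differ beyond their spread. *Lgmn* encodes legumain, which cuts after asparagine and matures other cathepsins. It was at 1491, 1213, 1304, 1132, 1242 and 1968 CPM in macrophages and 559, 413, 903, 898, 499 and 566 CPM in monocytes, with no overlap. *Ctsc*, which activates granule serine proteases, was at 874 CPM ± 111 in macrophages and 528 ± 196 in monocytes (SD, n = 6), and was lowest in fibroblasts, at 17.4 CPM.

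*Ctsz*, a carboxypeptidase, was at 1036 CPM ± 153 in macrophages and 706 ± 198 in cDCs, and was higher in macrophages in all 6 hearts. *Ctsh*, an aminopeptidase, did not differ beyond its spread between macrophages (461 CPM ± 56.7) and cDCs (439 ± 62.5), with macrophages higher in 3 of 6 hearts. B cells, which present antigen too, held 30.1% of the macrophage level of *Ctsh*, 30.0% of that of *Ctsz*, 16.4% of that of *Lgmn* and 10.6% of that of *Ctss*. Complement genes *C1qa*, *C1qb* and *C1qc*, which lymphocytes lack, were in B cells at 2.65%, 3.55% and 1.09% of their macrophage levels, and over all 8 lymphocyte types at no more than 5.22%. The median cell held 2292 UMIs in B cells and 6606 in macrophages. *Ctsh* was found in each heart's B cells, at 67.0 to 181 CPM, from 97 UMIs in all, but *Ctsz* at 808 CPM in heart 5 came from 4 B cells, against 133 to 268 CPM elsewhere.

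*Ctsk*, the collagen-degrading cathepsin best known from osteoclasts, was a fibroblast gene here. Fibroblasts had 96.1, 135, 108, 108, 57.2 and 99.3 CPM, and macrophages had 4.72, 29.2, 6.51, 11.02, 42.7 and 40.7 CPM, with no overlap between types. Of fibroblasts 36% held a *Ctsk* UMI, against 5.13% of macrophages. Fibroblasts also led for *Ctsf* and *Ctso*, cathepsins of low level, at 26.7 CPM ± 23.4 and 36.2 ± 29.5 (SD, n = 6), but neither was detected in the fibroblasts of hearts 2 and 5, which numbered 6 and 4. For *Ctsf*, a count of 0 there allows up to 69.1 and 96.0 CPM. *Ctsl*, a broad endopeptidase, was at 906, 542, 774, 591, 1000 and 845 CPM in fibroblasts, above macrophages in all 6 hearts (macrophage minus fibroblast log2 difference -0.75 ± 0.29, mean ± SD, n = 6), and its Mo-DC level ran from 144 to 1807 CPM, so that the 2 leading types did not differ beyond their spread. In GENCODE release M21 the exons of *Ctsl* overlap those of Gm49230, those of *Ctsd* overlap Gm49369 and those of *Glb1* overlap *Tmppe*, and such reads can be split or lost in counting.

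*Ctsw* and *Ctse* were higher by mean level in lymphocytes than in macrophages. *Ctsw*, known from cytotoxic lymphocytes, was at 468, 495, 450, 425, 435 and 511 CPM in NKT cells and 437, 416, 477, 417, 397 and 412 CPM in NK cells, and NKT cells led in 5 of 6 hearts. Macrophages held 12.0 CPM, the lowest of all types. *Ctse*, an aspartic protease, was spread thinly, with 113 CPM ± 79.1 in Tn cells, 107 ± 37.7 in monocytes, 101 ± 19.7 in Trm-like cells and 99.3 ± 20.2 in central memory T (Tcm) cells (SD, n = 6), and these did not differ beyond their spread. Every lymphocyte type held more *Ctse* than macrophages, from 164% to 282% of their level of 40.0 CPM. *Ctsd*, the main lysosomal aspartic protease, was at 974 CPM ± 202 in Mo-DCs and 906 ± 431 in macrophages. Among lymphocytes it reached 49.6% of the macrophage level in NK cells, against 8.38% in B cells, and cDCs were low as well, at 77.1, 80.5, 112, 80.3, 131 and 45.2 CPM. *Ctsa*, a serine carboxypeptidase that protects the products of *Neu1* and *Glb1*, was at 413 CPM in monocytes and 396 CPM in macrophages, which differed by less than their spread.

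*Cst3* encodes cystatin C, a secreted inhibitor of cysteine cathepsins and a known marker of dendritic cells. It was at 2265, 1907, 1579, 3050, 2276 and 3188 CPM in cDCs and 784, 1243, 993, 942, 1049 and 787 CPM in macrophages, and cDCs led in all 6 hearts with no overlap. Fibroblasts had 853 CPM ± 198 (SD, n = 6), which made *Cst3* the member of highest level in that type.

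Of the membrane proteins, *Laptm5* was the one that lymphocytes used most. It encodes a lysosomal protein of blood cells that lowers surface antigen receptors, and it took 46.2% of the members' UMIs in Trm-like cells and 43.4% in NK cells. Its level was 2636 CPM ± 304.8 in Trm-like cells, 2561 ± 222 in NK cells and 245 ± 87.4 in fibroblasts (SD, n = 6), and the first pair overlapped. *Lamp2*, a major lining protein with roles in autophagy, was at 594, 785, 791, 697, 476 and 644 CPM in monocytes and was higher than in macrophages in all 6 hearts, though the ranges overlapped (534 CPM ± 58.6 in macrophages). *Lamp1*, its relative, was at 762 CPM in macrophages and 681 CPM in monocytes, which overlapped. *Cd63*, a tetraspanin of late endosomes, led in fibroblasts at 585 CPM ± 90.3, and separated macrophages (151 to 591 CPM) from monocytes (0 to 96.0 CPM). *Scarb2*, the receptor that carries glucocerebrosidase to lysosomes, was at 277 CPM ± 56.5 in fibroblasts and above macrophages in all 6 hearts. *Cd68*, a macrophage scavenger protein, was at 149 CPM in monocytes and 141 CPM in macrophages, with overlap, and *Npc1*, the cholesterol exporter, ranged from 33.0 CPM in B cells to 188 CPM in macrophages.

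*Psap* was the member with the highest level in macrophages. It encodes prosaposin, the precursor of saposins that help hydrolases reach lipids, and it supplied 23.3% of the members' UMIs there. Its level was 6214, 5558, 4817, 5820, 7431 and 7094 CPM in macrophages and 5745, 6050, 5717, 4982, 4895 and 5600 CPM in monocytes, which overlapped, and fibroblasts had 731 CPM ± 139 (SD, n = 6). *Npc2*, which hands cholesterol to *Npc1*, was at 1274 CPM in macrophages and 1188 CPM in monocytes, and *Grn*, the progranulin precursor, was at 773 CPM in macrophages and 725 CPM in Mo-DCs, both with overlap. The glycosidases and lipid hydrolases were lower and even. *Hexa*, *Gusb*, *Lipa*, *Asah1* and the peptidase *Tpp1* led in macrophages, at 206, 155, 106, 185 and 86.6 CPM, and *Man2b1* led in monocytes, at 153 CPM, yet in each case the next type overlapped. *Glb1*, the beta-galactosidase, led in fibroblasts at 25.1 CPM against 21.3 CPM in macrophages. *Neu1*, the sialidase, led in Mo-DCs at 100.0 CPM, and was higher in macrophages than in monocytes in all 6 hearts.

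Of the proton pump genes, *Atp6v0c*, the ring subunit, was at 1065 CPM ± 143 in macrophages and 1003 CPM in monocytes, and lymphocytes held 21.7% to 27.9% of the macrophage level. *Atp6ap1*, an accessory subunit, was at 229 CPM in monocytes and 210 CPM in macrophages. *Atp6v0d2*, a subunit known from osteoclasts and some macrophages, was nearly absent. It had 11 UMIs in 429 macrophages and 5 in 204 Mo-DCs, and 0 in 7 types, among them 171 cDCs, which allows a share of up to 1.75% of cDCs with a UMI. Intervals and limits of this kind cover counting error only.

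Within annotated types the members varied with the marker content of the cells, given here for all hearts together and with no test. The 83 fibroblasts with endothelial markers held 22.9 CPM of *Ctsk*, 339 CPM of *Cd63* and 346 CPM of *Lgmn*, and the other 292 held 130, 685 and 149 CPM. The 35 Mo-DCs with neutrophil markers held 1807 CPM of *Ctsd*, 151 CPM of *Ctss* and 125 CPM of *Lgmn*, and the other 169 held 776, 1347 and 1090 CPM. *Ctsd* was higher with neutrophil markers, as was *Ctse* at 125 against 58.2 CPM from 15 and 25 UMIs, whereas *Ctss* and *Lgmn* were lower. Among cDCs, 63 held a UMI of *Ccr7*, the homing receptor of mature dendritic cells. These held 569 CPM of *Cd63*, 160 of *Grn*, 59.6 of *Ctsl*, 43.9 of *Npc1* and 332 of *Ctsb*, and the 108 cDCs without one held 56.0, 524, 180, 197 and 571 CPM. The cells with *Ccr7* were higher in *Cd63* and lower in the other 4, at 6456 and 6579 UMIs per median cell. In the 26 unconventional T cells without the mixed marker set, the 36 genes took 1.85% of UMIs, against 1.63% in the other 57. The set required markers of both T cells and macrophages, so the 26 can include cells with macrophage markers.

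The graft comparison asked which genes differed between hearts labelled IL-33+ and IL-33- within a type. Each heart gave 1 value per type, the difference is IL-33+ minus IL-33- on the log2(CPM + 10) scale, and limma's Benjamini-Hochberg adjusted p over all genes tested in the type was required to be 0.05 or less. Over 14 types, 454 of the 504 pairs of a member and a type were tested, and 0 were called (0 with limma-voom as well), against a background of 0.00884% of all gene and type pairs (10 of 113178). At an unadjusted p of 0.05 or less there were 22 member pairs, which is 4.85% of those tested, against 4.71% of all pairs. The smallest adjusted p of a member was 0.295. The share of member pairs was thus close to the background. In simulated data of the same size, 78.5% of genes changed by 4-fold were recovered in macrophages, 67% in monocytes and 56.5% in fibroblasts, with 13, 2 and 10 false calls. The simulation set its own spread between hearts, fitted summed UMIs and changed 200 genes at once, drawn from those with more UMIs. These shares are therefore not the power of the tests above and do not cover members with few UMIs. Differences between the grafts, those of 4-fold included, could be missed.

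In macrophages 36 members were tested, and 0 were called, as for all 9683 genes (0%). The members leaned to lower values in the hearts labelled IL-33+. Of the 36, 31 were lower and 5 higher, with a median of -0.23 and a range from -0.88 to 0.10, whereas 54.7% of all genes tested were lower, with a median of -0.05. At an unadjusted p of 0.05 or less there were 2 members, both lower, against 4.04% of all genes. Single hearts moved these values, since 6 members had such a p without heart 3 and 0 without heart 5, and the median was -0.15 without heart 6. The groups did not overlap for 4 members, all lower (*Atp6ap1*, *Atp6v0c*, *Lamp1* and *Ctsz*), against 5.15% of all genes lower and 3.82% higher without overlap. Heart 5 had a summed neutrophil marker level of 2692 CPM in its macrophages, against 26.5 to 133 CPM in the others, and *Ly6g* was at 0 in all. Without cells that held at least 4 neutrophil markers, 30 members were lower. Marker lists of other cell types were also summed in macrophages. Those of B, NK and T cells, cardiomyocytes and fibroblasts overlapped between the graft groups. The fibroblast sum was 307, 258 and 373 CPM in hearts 1 to 3 against 372, 600 and 442 CPM in hearts 4 to 6. Of the lists examined, those of 3 other cell types separated the macrophages of the graft groups, with hearts 1 to 3 above hearts 4 to 6. The summed level of 8 cDC markers was 349, 376 and 273 CPM against 219, 31.2 and 178 CPM, that of 6 endothelial markers was 76.0 to 116 CPM against 40.4 to 50.4 CPM, and that of 5 regulatory T cell markers was 53.8 to 109 CPM against 28.7 to 45.8 CPM, with every marker of the 3 lists detected. Their part in the lower member values was not tested.

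*Atp6ap1* (chromosome X, 74297097 to 74304721) was at 191, 143 and 164 CPM in the macrophages of hearts 1 to 3 and 241, 267 and 252 CPM in those of hearts 4 to 6. All hearts labelled IL-33+ were lower, by a log2 difference of -0.59 ± 0.24 (SE, n = 3 per group), with an unadjusted p of 0.0233 and an adjusted p of 0.987 by limma. *Lipa*, the acid lipase, was at 55.5, 33.4 and 141 CPM against 116, 201 and 90.5 CPM, which overlapped, with a log2 difference of -0.88 ± 0.40 and an unadjusted p of 0.0394 (limma).

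The other macrophage genes followed by name overlapped between grafts. *Ctss* differed by -0.09 ± 0.17, *Lgmn* by -0.08 ± 0.21, *Cst3* by 0.10 ± 0.21 and *Ctsb* by -0.19 ± 0.21 (log2, SE, n = 3 per group), and all 4 had an adjusted p of 0.987 or more by limma. *Ctsl* was at 414, 259 and 565 CPM against 339, 603 and 635 CPM, a difference of -0.36 ± 0.28, which was -0.07 without heart 2, -0.20 without heart 6, -0.23 without heart 5, -0.61 without heart 3 and -0.64 without heart 4. *Cd63* was at 151, 343 and 376 CPM against 297, 591 and 280 CPM, a difference of -0.43 ± 0.32, which was -0.03 without heart 1, -0.09 without heart 5 and -0.66 without heart 3. Neither pair of groups was apart. *Ctsk* was at 4.72, 29.2 and 6.51 CPM against 11.02, 42.7 and 40.7 CPM, from 39 UMIs in all, a difference of -0.85 ± 0.52, which was -1.30 without heart 2, -1.29 without heart 4 and -0.36 with 50 CPM added in place of 10. *Atp6v0d2* was at 3.41, 0 and 1.03 CPM against 0, 0 and 20.9 CPM, from 11 UMIs, and a count of 0 allows up to 47.6, 5.63 and 19.4 CPM in hearts 2, 4 and 5.

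*Ctsd* (chromosome 7, 142375911 to 142388038) depended on single hearts. It was at 384, 520 and 1414 CPM in hearts 1 to 3 and 679, 1209 and 1232 CPM in hearts 4 to 6. Heart 3 was the highest of all 6, and hearts 1 and 2 the lowest. The log2 difference was -0.60 ± 0.34 (SE, n = 3 per group) with an adjusted p of 0.987 by limma. Without heart 3 it was -1.15, with an adjusted p of 0.00892, and without heart 1 it was -0.22, with an adjusted p of 0.929.

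**Figure D3:**
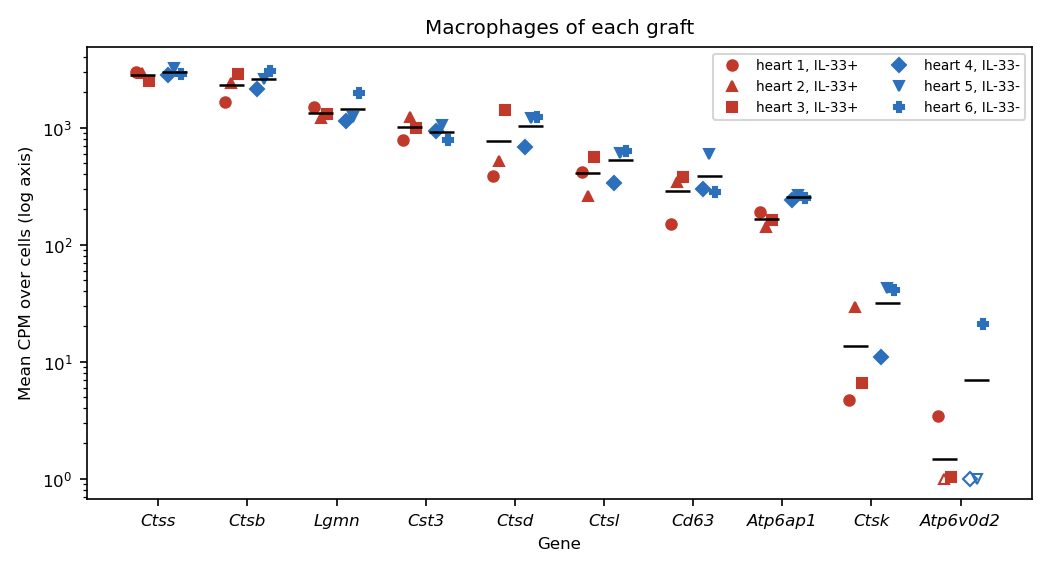
Mean CPM over the macrophages of each heart (y axis, log scale) for 10 genes (x axis), with red points for hearts labelled IL-33+ and blue for those labelled IL-33-, and lines at group means. Open points are 0 CPM, drawn at 1. The groups are apart for *Atp6ap1* and overlap for the other 9, and the highest *Ctsd* point is heart 3.

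The cDCs were the type with most members past an unadjusted p of 0.05. Of 33 tested, 0 were called (0% of 7951 genes), and 8 had an unadjusted p of 0.05 or less, against 6.79% of all genes. The groups did not overlap for 5 members that were higher with IL-33+ and 4 that were lower, against 7.34% and 5.09% of all genes. The members as a group had no common direction, with 19 higher and 14 lower and a median of 0.06, the same as for all genes. After centring each heart on its median gene, 13 were higher, with a median of -0.04. Centring moves all genes of a heart alike, so it could not change how the members stood against all genes.

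*Grn* (chromosome 11, 102430315 to 102437048) was at 291, 679 and 753 CPM in the cDCs of hearts 1 to 3 and 231, 166 and 226 CPM in those of hearts 4 to 6. All hearts labelled IL-33+ were above the rest, by a log2 difference of 1.33 ± 0.32 (SE, n = 3 per group), with an adjusted p of 0.295 by limma. It was 1.75 with an adjusted p of 0.0447 without heart 1, and the adjusted p was 0.011 when no filter on low counts was used. Over the 17 alternatives run for *Grn*, the difference was 1.00 to 1.75 and the adjusted p 0.011 to 0.998 (limma). No member in cDCs had an adjusted p below 0.755 without heart 3, or below 0.903 without heart 5. *Ctsb* was at 474, 659 and 720 CPM against 363, 377 and 314 CPM, a difference of 0.78 ± 0.23. *Ctsl* was at 120, 161 and 253 CPM against 96.4, 22.99 and 65.7 CPM, a difference of 1.49 ± 0.44. *Npc1* was at 161, 136 and 247 CPM against 45.3, 114 and 116 CPM, a difference of 0.96 ± 0.39, which was 0.57 without heart 4. In these 4 genes no IL-33- heart reached an IL-33+ heart.

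The opposite order held for *Cst3* and *Cd63*. *Cst3* was at 2265, 1907 and 1579 CPM against 3050, 2276 and 3188 CPM, a difference of -0.56 ± 0.17. *Cd63* was at 166, 251 and 126 CPM against 311, 311 and 416 CPM, a difference of -0.94 ± 0.29. The adjusted p of *Ctsb*, *Ctsl*, *Npc1*, *Cst3* and *Cd63* was from 0.481 to 0.706 by limma. *Ctsw* was at 35.7, 34.7 and 25.02 CPM against 14.3, 0 and 0 CPM, from only 21 UMIs in all, and a count of 0 allows up to 45.9 and 14.8 CPM in hearts 5 and 6, which reaches the level of the other group in heart 5.

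**Figure D4:**
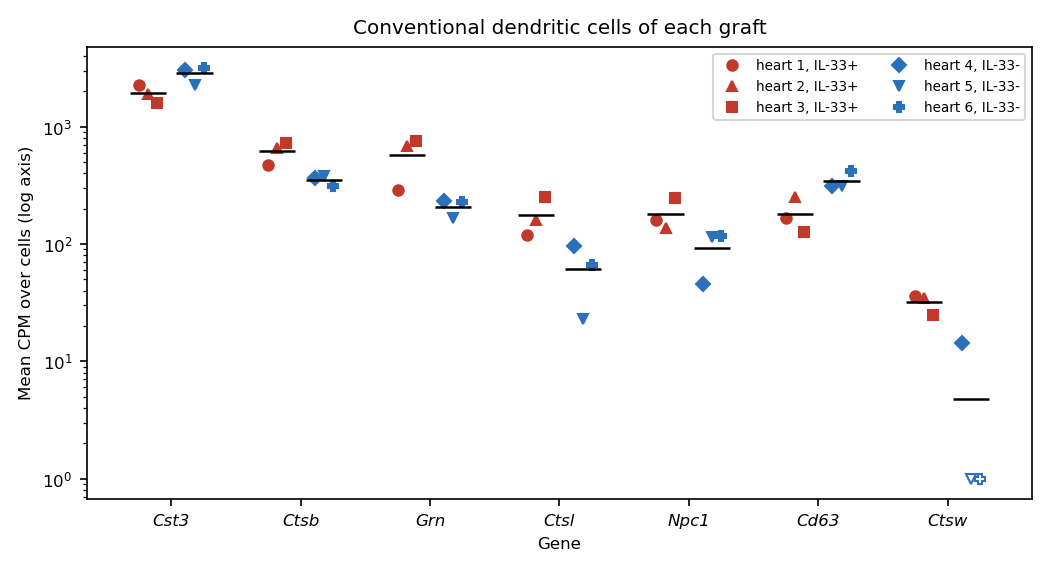
Mean CPM over the cDCs of each heart (y axis, log scale) for 7 genes (x axis), with red points for hearts labelled IL-33+ and blue for those labelled IL-33-, and lines at group means. Open points are 0 CPM, drawn at 1. The groups do not overlap for any of the 7, with *Cst3* and *Cd63* lower in red than in blue and the other 5 higher. Lack of overlap was part of the rule by which cDC genes were named. Of the 33 members tested in cDCs, 5 were higher without overlap and 4 lower without overlap.

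Of 3 cDC state genes, *Ccr7* separated the same hearts and the others overlapped. *Ccr7* in cDCs was at 586, 514 and 273 CPM in hearts 1 to 3 and 1164, 886 and 2144 CPM in hearts 4 to 6, without overlap. The summed level of all 8 cDC markers, each of which was detected, was 1110 to 1663 CPM against 1908 to 3374 CPM. *Ccr7* is among these 8, so the sum is not independent of it. With the level of *Ccr7* taken out of the sum, the groups overlapped, as heart 4 was then below hearts 1 and 3. *Fscn1*, a further gene of mature dendritic cells, was at 251, 637 and 165 CPM against 571, 442 and 531 CPM. *Cd209a*, a lectin of a cDC subset, was at 673, 69.8 and 476 CPM against 222, 736 and 707 CPM. The share of cDCs with a *Ccr7* UMI was 26.3%, 50% and 31.8% against 41.7%, 33.3% and 50%, which overlapped. *Cd63*, *Grn*, *Ctsl*, *Npc1* and *Ctsb* differed between grafts in the direction in which *Ccr7* separates cDCs, as did *Cst3*, at 2708 CPM with and 2279 CPM without a *Ccr7* UMI. *Ctsw* did not, at 20.6 CPM with and 19.0 CPM without, from 9 and 12 UMIs. The split by *Ccr7* pooled the cells of all hearts, which differed in their share of cells with *Ccr7*. Its directions are therefore not independent of those between grafts, and a part of *Ccr7* content in the graft differences was not tested. Among cDCs without a *Ccr7* UMI, the differences were -0.88 for *Cd63*, 1.23 for *Grn*, 1.62 for *Ctsl*, 0.90 for *Npc1*, 0.83 for *Ctsb*, -0.40 for *Cst3* and 0.84 for *Ctsw*, and 4 of 33 members had an unadjusted p of 0.05 or less, against 4.71% of the genes tested in them. These cells were chosen after the values were seen.

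**Figure D5:**
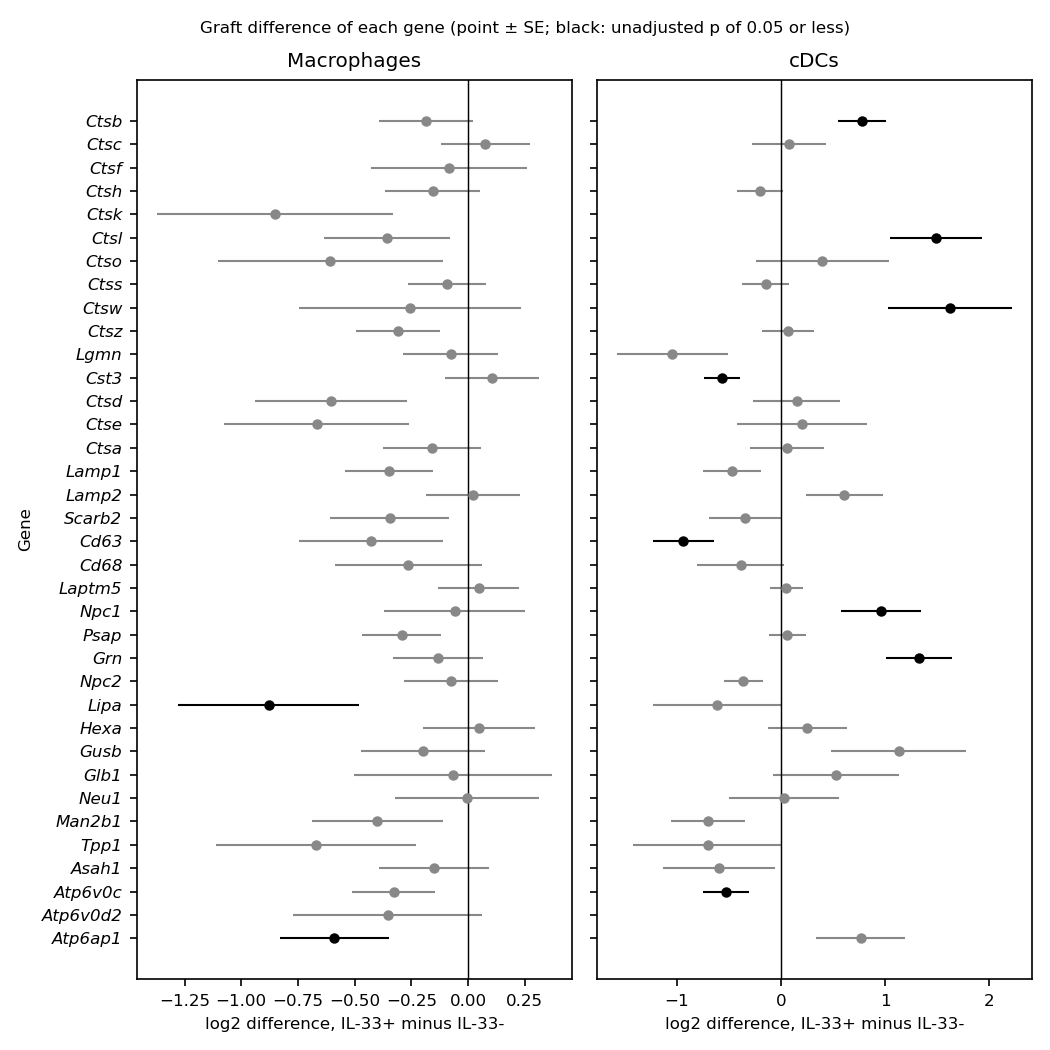
Log2 difference of each member between hearts labelled IL-33+ and IL-33- (x axis, point ± SE, n = 3 per group) in macrophages and in cDCs, with black points for an unadjusted p of 0.05 or less. In macrophages 31 of 36 points lie left of 0, and in cDCs 19 of 33 lie right of it. The x axes of the panels differ in range.

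In monocytes 33 members were tested and 0 were called, against 0.014% of 7123 genes. An unadjusted p of 0.05 or less was found for 2, against 4.87% of all genes, and 16 were higher and 17 lower. *Npc2* was at 1099, 895 and 1025 CPM against 1630, 1273 and 1204 CPM, lower in all hearts labelled IL-33+ by -0.43 ± 0.21 (SE, n = 3 per group), with an unadjusted p of 0.0411 and an adjusted p of 0.965 (limma). *Ctsc* was at 496, 483 and 273 CPM against 597, 456.1 and 864 CPM, with overlap, and an unadjusted p of 0.0319 (limma). In fibroblasts and Mo-DCs, 35 and 32 members were tested. In both, 0 were called, against 0.0187% and 0.0702% of all genes, and 0 had an unadjusted p of 0.05 or less, against 3.16% and 3.49%.

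In the cells annotated as unconventional T cells, 6 of 32 members tested had an unadjusted p of 0.05 or less, all lower in the hearts labelled IL-33+, against 4.54% of 7356 genes, and 0 were called, against 0.0272%. *Cd63* was at 141, 0 and 99.1 CPM against 201, 254 and 285 CPM, a difference of -2.21 ± 0.66 with an adjusted p of 0.778 (limma). The value of 0 came from 2 cells of heart 2 and allows up to 167 CPM, and 57 of the 83 cells carried markers of both T cells and macrophages. The adjusted p was 0.0177 with no filter on low counts, 0.0358 with robust variance, 0.000987 without heart 1 and 0.019 without heart 3. In NK cells *Ctsl* was at 38.4, 41.0 and 49.0 CPM against 75.2, 67.8 and 78.3 CPM, with an unadjusted p of 0.0246 (limma) and 5.82% of all genes at that level. *Ctsl* was lower in Tcm cells too, at 56.0, 29.8 and 55.5 CPM against 97.1, 70.4 and 86.8 CPM, with an unadjusted p of 0.0383 (limma) and 4.87% of all genes at that level, and the adjusted p was 0.839 in NK and 0.951 in Tcm cells. In cDCs *Ctsl* ran the other way, and the difference between these types was not tested. In NKT cells *Ctse* was lower, at 35.3, 52.3 and 51.3 CPM against 81.2, 86.6 and 87.4 CPM, and *Npc1* higher, at 113, 204 and 102 CPM against 95.9, 68.2 and 99.7 CPM, with adjusted p of 0.924 for both (limma) and 4.88% of all genes at an unadjusted p of 0.05 or less. In B cells, Tn, effector memory, regulatory and Trm-like T cells, 0 of 29 to 33 members had an unadjusted p of 0.05 or less, against 4.19%, 4.92%, 4.41%, 5.1% and 5.05% of all genes. The direction of the members varied by type. In regulatory T cells 23 of 32 were higher with IL-33+, so that 28.1% were lower against 51.9% of all genes, with a median of 0.21 against -0.02. In NK cells 22 of 33 were higher, with 48.9% of all genes lower, and in B cells 24 of 31, with 34.5% of all genes lower. In unconventional T cells 25 of 32 were lower, against 55.2% of all genes.

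For the mean over the 10 types with at least 5 cells in each heart, 36 members were tested, and 0 were called (0% of 13254 genes) and 0 had an unadjusted p of 0.05 or less, against 4.16% of all genes. The members were evenly divided, with 18 higher and 18 lower, a median of 0.00 and a range from -0.19 to 0.22.

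The difference of the graft effect between types was tested directly. Between macrophages and monocytes, 0 of 36 members were called (0% of 10170 genes), and 29 of the 36 had a more negative effect in macrophages, against 52.7% of all genes, with a median difference of -0.26 against -0.04 for all genes. The median was -0.43 without heart 4, -0.16 without heart 5 and -0.17 without heart 3, and 12 of 36 had a less negative effect without heart 5. Centring each heart on its median gene moved the median of all genes to 0.11 and that of the members to -0.10, with 12 members less negative. *Atp6ap1* was the member with an unadjusted p of 0.05 or less, against 4% of all genes. Its macrophage minus monocyte log2 difference was -0.36, -0.91 and -0.92 in hearts 1 to 3 and 0.54, 0.90 and 0.14 in hearts 4 to 6, so that the 2 effects differed by -1.26 ± 0.45 (SE, n = 3 per group), with an adjusted p of 0.933 by limma. Between macrophages and fibroblasts, 0 members were called (0% of 12228 genes) and 0 had an unadjusted p of 0.05 or less, against 3.59% of all genes. The macrophage hearts entered all of these comparisons and are shared by them.

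Other lysosomal genes in a list of hydrolases, pump subunits, membrane and transport proteins, regulators and cathepsin inhibitors gave a wider view. Of 83 tested in macrophages, 0 were called, as for all genes tested (0%). With IL-33+ 54 were lower (65.1%) and 29 higher, with a median of -0.14. Of all genes 54.7% were lower, with a median of -0.05. At an unadjusted p of 0.05 or less there were 8, all lower, against 4.04% of all genes. Those named here were without overlap between the groups. *Lamtor1*, which anchors mTORC1 signalling at the lysosome, was at 37.1, 26.8 and 38.0 CPM against 73.5, 74.8 and 96.9 CPM. *Atp6ap2*, another accessory protein of the proton pump, was at 323, 252 and 262 CPM against 488, 458 and 330 CPM. Their differences were -1.06 ± 0.35 and -0.58 ± 0.23, and both had an adjusted p of 0.987 (limma). By group, 10 of 13 pump genes (76.9%), 9 of 12 regulators (75%) and 14 of 22 membrane and transport genes (63.6%) were lower. So were 18 of 29 hydrolases (62.1%) and 3 of 7 genes listed as cathepsin inhibitors (42.9%), against 54.7% of all genes. That list also held *Serpinb9*, a granzyme B inhibitor.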

How the data were processed

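Cells from 6 hashed hearts were read as 1 pool of 3' libraries. The authors used Cell Ranger on mm10 and Partek Flow 10.0.23.0425, filtered cells by depth, detected genes and mitochondrial reads, and deposited log2(CPM + 1) values per gene and cell with a table of cell types and hashtags. How hashtags were assigned is not given in the sources used here. UMIs were recovered from value steps (99.9% of low values within 0.05 of a whole UMI). For 22 symbols, none a member, the deposited value is a mean over several identifiers.

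CPM averaged across the cells that a heart had of a type, plus 10 CPM, was compared on the log2 scale with limma 3.58.1 in R 4.3.3 (trend, not robust). Genes needed 10 UMIs in all and a UMI in 3 hearts. Benjamini-Hochberg adjustment ran over all genes tested. The hearts were separate grafts, 3 per group. Fits were tested on simulated data. The members, lists, markers and motifs were chosen with earlier results of these data known. Named members were the 8 highest in macrophages, the highest of each type, those led by another type, those with an unadjusted p of 0.05 or less and groups apart in myeloid cells or fibroblasts, and 9 proteases and related genes in macrophages; others were named after their values were seen. Coordinates are those of GENCODE release M21 on GRCm38 and RefSeq on GRCm38.p6, from 1. Alternatives changed the pseudocount (1 or 50 CPM), filter, summation, normalization, variance, cells and hearts used. No protein sequence was used here. An item of the wider lysosomal list is counted but not reported here by name.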

Additional observations from a re-analysis of the deposited data

How the results depend on the processing

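Counts of members called stayed at 0 under each alternative run for the mean over types and for the 2 differences between types, each heart left out included. Over the 14 types, the count of 0 became 2 with no filter on low counts (*Grn* in cDCs and *Cd63* in unconventional T cells) and 1 with robust variance (*Cd63*). Without 1 heart it ranged from 0 to 2, with 2 without heart 1 (*Grn* and *Cd63*) and 2 without heart 3 (*Ctsd* in macrophages and *Cd63*). The count of members lower in macrophages, 31, was 26 to 31 without 1 heart and 27 with limma-voom on UMIs. The count of cDC members with an unadjusted p of 0.05 or less, 8, was 7 to 10 without 1 heart and 4 among cDCs without a *Ccr7* UMI, an alternative chosen after seeing the data, in which fewer cells entered. Of the 36 members, 17 were highest in macrophages by mean over hearts, 14 with all cells of a type together and 16 without possible doublets and neutrophil-like cells. In macrophages the difference of *Cst3* changed sign to -0.030 without possible doublets, and without 1 heart ranged from -0.059 to 0.27, with -0.059 without heart 2 and -0.0072 without heart 6. That of *Ctsb* was -0.36 to 0.031 without 1 heart, that of *Lgmn* -0.23 to 0.17, and that of *Atp6v0d2*, from 11 UMIs, was 0.092 with limma-voom. The other 14 differences followed through the alternatives kept their direction in all of those run, though the sizes of several moved with single hearts. The cause of the changes was not tested. Directions of *Lipa*, *Lamtor1* and *Atp6ap2* in macrophages, *Ctsc* in monocytes, and the genes named in lymphocytes and unconventional T cells were not followed in this way. No paired analysis was possible because the labels number the hearts 1 to 3 and 4 to 6 and tie no heart of one group to one of the other. Low UMI counts limit *Atp6v0d2*, *Ctsk* and *Ctsw*, and few cells limit hearts 2 and 5.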

Other observations

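Genes other than *Cst3* that were listed as cathepsin inhibitors had patterns of their own by type, given as levels with no test. *Cstb*, the intracellular stefin B, was highest in macrophages, at 1416 CPM ± 340 (SD, n = 6), with 1239 CPM in Mo-DCs. *Ctla2a* and *Ctla2b*, which resemble cathepsin propeptides, were highest in NK cells, at 1268 CPM ± 214 and 397 ± 47.9, and were at 32.9 and 13.1 CPM in macrophages. *Serpinb9*, a granzyme B inhibitor, had 685 CPM in NK cells, with NKT cells close to it at 679 CPM. *Stfa3* was at 75.2 CPM in effector memory T cells and 71.3 CPM in unconventional T cells, from 161 UMIs in all types. *Stfa2l1* was at 170 CPM in Mo-DCs, from 0 to 748 CPM over hearts, and at 3.41 CPM in cDCs, the next type.

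Among the regulators, *Mitf* was highest in macrophages, at 49.0 CPM ± 27.4, and *Tfe3* was highest in Mo-DCs, at 147 CPM ± 96.0. *Tfeb* had 34.4 CPM in NK cells, 31.8 in B cells and 24.5 in macrophages. *Lyz2* was at 4923 CPM ± 747 in monocytes and 2498 CPM in macrophages.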
